A study of Homo sapiens with 21 samples.

Results

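PAR-CLIP clusters of HNRNPK that the authors' annotation placed in no gene were examined in MDA-MB-231 cells. The members were all clusters with the class NoAnnotation on chromosomes 1 to 22, and they numbered 157986 of the 778762 clusters in 4 libraries. The parental cytoplasmic library held 34719 of them, the *KRT19* KO cytoplasmic library 37336, the parental nuclear library 38072 and the *KRT19* KO nuclear library 47859. MDA-MB-231 is an established line of triple-negative breast cancer cells, and the *KRT19* KO cells were made from it by CRISPR/Cas9. Whether the KO line is a single clone is not given in the sources used here. All 4 libraries came from cells given 4-thiouridine (4SU), a uridine analogue that crosslinks to protein under ultraviolet light, and all were immunoprecipitated with an antibody labelled as against HNRNPK/J. Each condition had 1 library, so no difference between libraries has a replicate check and no p-value was computed.

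HNRNPK is an RNA-binding protein of nucleus and cytoplasm whose KH domains contact C-rich stretches of RNA. In PAR-CLIP, sequencing reads a crosslinked 4SU as C instead of T, and a cluster is a stretch of overlapping reads with such changes. RNA outside annotated genes comes from several kinds of transcription, among them read-through beyond the ends of genes, long non-coding RNA and RNA antisense to genes. The question was what these clusters look like, where they lie and whether separate libraries hold the same ones.

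A site was a stretch on 1 strand covered by overlapping members. The sites present in all 4 libraries with the highest lowest read count show the sequences that recurred, and 7 of the 10 are printed here around their most covered position (GRCh37, 5′ to 3′, as DNA). Capitals mark runs of 3 or more C with the T before them.
Chromosome 5 site, chr5:152750208-152750229, plus strand: atactcaaaatatatattatat
*ATF7IP* exon, chr12:14653261-14653290, plus strand: aaaaattaattctccaaaccacctttcact
Chromosome 2 site, chr2:227675865-227675894, plus strand: tttttctatTCCCttttTCCCCtcctatta
*MIR100HG* gene body, chr11:121988410-121988439, minus strand: aatttatattcctTCCCtcattaaTCCCCC
*MIR100HG* exon, chr11:122025366-122025395, minus strand: aatatctacTCCCaaacaaaccaTCCCttt
Beyond *CENPK*, chr5:64800706-64800735, minus strand: aatcttTCCCaCCCatacacatTCCCtaaa
*SLC35F3* gene body, chr1:234137946-234137974, plus strand: ttTCCCtattattaacctcacacaaaaca

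Of the 10 sites, 8 held UCCC, the C-rich word used throughout. Of all 1261 sites present in all 4 libraries, 57.8% held it. The chromosome 5 site had 759, 536, 485 and 908 reads in parental cytoplasm, *KRT19* KO cytoplasm, parental nucleus and *KRT19* KO nucleus, and this order is used wherever 4 values are given. It had no UCCC, a cytosine share of 9.09%, and between 96.3% and 98.97% of its reads carried a T-to-C change. Over all members of at least 100 reads that share was between 56.1% and 72.6% in the 4 libraries. Whether crosslinking gave the high share at this site was not tested. The *ATF7IP* site, in a gene for a chromatin regulator, had 815, 1369, 249 and 231 reads and also lacked UCCC. Its T-to-C share was between 50.2% and 52.7%. Both *MIR100HG* sites, in the host gene of several microRNAs, had more reads in parental than in *KRT19* KO cells. One of them, ending in TCCCCC, had 893, 161, 649 and 178 reads, and the other had 867, 220, 636 and 152. The site 12854 nt beyond the 3′ end of *CENPK*, a kinetochore gene, had 323, 325, 317 and 142 reads. The *SLC35F3* site, in a solute carrier gene, had 260, 138, 192 and 230 reads. These 10 sites had at least 136 reads in every library, and the next site had 126 in its lowest.

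The libraries held between 177530 and 201726 clusters, and those on chromosomes 1 to 22 held between 3077852 and 5844286 reads. *KRT19* had 1 cluster of 7 reads, 1 of 5 reads and none in either nuclear library, too few to check the genotype. The mesenchymal markers *VIM*, *CD44*, *AXL* and *HMGA2* had clusters in all 4 libraries, and so did the luminal markers *ESR1*, *KRT8* and *KRT18*. Of the other luminal markers *PGR* had none, *ERBB2* had clusters in both nuclear libraries and *GATA3* in both *KRT19* KO libraries. The nuclear RNAs *MALAT1*, *NEAT1* and *KCNQ1OT1* had clusters in all libraries, cytoplasm included. The parental cytoplasmic library stood apart in 2 ways. It had 0 clusters on sequences other than the named chromosomes, where the other libraries had between 221 and 269. In 39 bins of 100 kb it held at least 5 members where the other 3 libraries held none, and in these bins it had 896 clusters of any class against 7, 6 and 10. The other libraries had 2 such bins each. Leaving out these 45 bins changed the share of clusters without annotation in the parental cytoplasm from 17.7% to 17.6%.

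Clusters without annotation made up 17.7% (95% Wilson interval 17.5 to 17.8%), 21.5% (21.3 to 21.7%), 19.4% (19.2 to 19.6%) and 24.5% (24.3 to 24.7%) of the clusters on chromosomes 1 to 22. These intervals cover counting error only. In both fractions the share was higher in *KRT19* KO than in parental cells, and in both cell lines higher in the nucleus than in the cytoplasm. With at least 2 conversion locations required of a cluster, the order of the fractions turned in *KRT19* KO cells, to 18.3% in the cytoplasm and 17.4% in the nucleus. By reads the order was not the same either. The members held 16.2%, 12.0%, 16.6% and 21.8% of the reads, lowest in the *KRT19* KO cytoplasm. Without the 10 members with the most reads in each library they held 10.8%, 11.5%, 16.5% and 21.2%, lowest in the parental cytoplasm.

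Most members were small. The median was 8 reads in both cytoplasmic libraries and 10 in both nuclear ones, and the minimum in the files was 5. Members of at least 100 reads numbered 530, 823, 256 and 213. A single distinct read sequence made up 34.8%, 19.3%, 42.9% and 43.7% of the members. The median length was 28, 28, 29 and 25 nt. Of the member reads, 74.1%, 67.3%, 74.1% and 81.4% carried a T-to-C change, and introns gave 74.3%, 67.9%, 73.8% and 78.4%. The T-to-C share fell with the reads of a member, from between 91.3% and 98.4% at 5 to 9 reads to between 52.9% and 59.4% at 50 to 99 reads. Clusters were called by such changes, so the high share in small members is not independent of the calling. At 100 reads or more the T-to-C share was 72.6% in the parental cytoplasm and between 56.1% and 61.9% in the other libraries. The 3 members with the most reads in the parental cytoplasm, all close to a ribosomal contig named below, had shares of 99.7%, 36.3% and 97.3%.

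A few members held many reads. The 10 members with the most reads held 37.4% of all member reads in the parental cytoplasm, against 4.09%, 1.08% and 3.31% in the other libraries. The first in the parental cytoplasm lay at chr16:33963215-33963271, plus strand, with 96815 reads, and had no overlapping member in the other 3. It was 96.5% identical to an unplaced GRCh37 contig known to carry ribosomal RNA genes, and the annotated 5.8S ribosomal RNA pseudogene *RNA5-8SP2* lies in the same bin. Among members of at least 100 reads, 28, 13, 5 and 3 were at least 90% identical to that contig, and they held 32.7%, 2.38%, 0.309% and 0.181% of the member reads. The contig is not among the named chromosomes, and on such sequences the parental cytoplasm had 0 clusters, against 232, 269 and 221. Whether its reads were placed on these members for that reason was not tested, which limits any comparison of libraries at them. At chr3:96337000-96337038, minus strand, a member 97.4% identical to the mitochondrial genome had 36909 reads in the parental cytoplasm and 17961 in the *KRT19* KO nucleus, and none in the others. The part of RNA from ribosomal or mitochondrial genes in these members was not tested. In the whole set, between 99.2% and 99.8% of member sequences occurred at a single place in GRCh37, and every member was equal to the genome sequence at its position.

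The members were rich in C and poor in G compared with their surroundings. C made up 26.0%, 26.4%, 26.7% and 29.1% of their bases, against 20.7%, 20.6%, 21.5% and 21.6% in flanks of the same length 100 nt to each side. G made up 6.71%, 6.20%, 11.2% and 7.88%, against 19.3%, 19.3%, 20.5% and 20.2% in the flanks. The methods used RNase T1, which cuts RNA after G, and its part in the low G was not tested. The shares of the bases add to a whole, so a low G share raises the others. The part of the low G in the higher C share, and in the UCCC ratios to the flanks given next, was not tested. A and U were each above their flanks in every library.

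**Figure D1:**
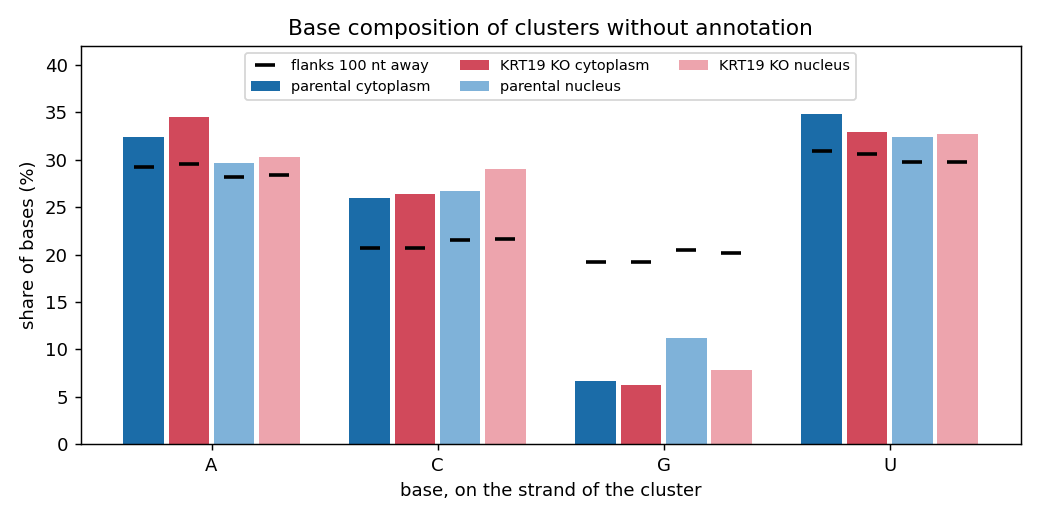
Share of A, C, G and U (%) over all bases of the clusters without annotation in each library (bars), with the same share in flanks 100 nt to each side (black marks). C stands above its flanks and G far below them in all 4 libraries, and G is highest in the parental nucleus at 11.2%.

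UCCC was present in 29.4% (28.9 to 29.9%), 28.4% (28.0 to 28.9%), 32.3% (31.8 to 32.8%) and 32.7% (32.3 to 33.1%) of the members. In the flanks it was present in 11.2%, 10.9%, 13.0% and 11.2%, so the members held it 2.63, 2.61, 2.49 and 2.93 times as often. Among all members of at least 10 reads the shares were 33.1%, 32.5%, 32.1% and 32.3%, and the nucleus was no longer the higher of the fractions. Introns held it in 30.1%, 29.8%, 33.1% and 31.8% of clusters, at 2.999, 3.15, 2.93 and 3.30 times their own flanks. The ratio to the flanks was thus lower for members than for introns in each library. Of all words of 5 nt, UCCCC was the most increased over the flanks in every library, by 1.98, 2.03, 1.90 and 2.21 on the log2 scale. UUCCC came next in each. Of the 10 most increased words, 8, 8, 9 and 9 held CCC.

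Members with more reads held UCCC more often. From 5 to 9 reads the share was 26.8%, 25.3%, 32.6% and 33.2%, and at 100 reads or more it was 43.4%, 40.1%, 69.1% and 62.4%. In both nuclear libraries the lowest share was at 10 to 19 reads, with 29.9% and 29.5%. In the nucleus the C share of the bases also rose, to 34.2% and 37.8% at 100 reads or more, while in the cytoplasm it was 25.9% and 25.5%. Over the same classes the median length rose from 28, 27, 28 and 24 nt to 34, 35, 35 and 31 nt. A longer member has more places for UCCC, and the part of length in the rise was not tested.

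The files' label did not hold for all members under a newer annotation. Against GENCODE release 44 mapped to GRCh37, 26.2%, 25.2%, 22.8% and 20.1% of the members lay in a gene on the same strand. Exons alone took 7.51%, 9.21%, 4.15% and 3.52% of the members, although such sequence is 2.86% of the genome's bases counted per strand. They held 18.3% and 22.6% of the member reads in the cytoplasm and 4.94% and 4.28% in the nucleus. Without the exon member with the most reads, which in both cytoplasmic libraries lay on chromosome 12 (chr12:127650609-127650661 in the parental one) and was close to the ribosomal contig named above, the exon members held 11.1% and 21.2% of the reads in the cytoplasmic libraries. Without the 10 members with the most reads of any place the exon members held 16.2% and 20.7%. Protein-coding genes took 18.4%, 17.9%, 14.9% and 12.6% of the members. Of the members in any same-strand gene, 58.9%, 59.7%, 54.4% and 52.5% lay in a gene whose name other clusters of the files carry. Members antisense to a gene body made up 28.0%, 29.97%, 28.9% and 32.0%, against 28.9% of the genome.

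Members outside genes were densest just beyond gene ends. Within 10 kb beyond the 3′ end of a gene on the same strand, and in no gene body, lay 18.7%, 19.9%, 17.1% and 17.0% of the members, against 4.60% of the genome. That was 26.3, 30.1, 26.3 and 33.0 members per Mb. Within 10 kb before a gene start it was 6.39, 6.47, 8.09 and 9.88 per Mb, and farther from genes 5.16, 5.09, 6.53 and 8.17. Of the members in no same-strand gene, 8.21%, 8.71%, 6.57% and 5.85% lay within 1 kb of such an end, against 1.34% of the genome outside same-strand genes. Within 50 kb it was 72.7%, 77.2%, 68.1% and 70.3% against 40.2%. In both cell lines the shares within 1 kb and 50 kb were higher in the cytoplasm than in the nucleus. UCCC was present in 30.7%, 28.9%, 35.2% and 34.5% of the members just beyond 3′ ends, and in 28.0%, 27.1%, 28.9% and 30.3% of those farther away.

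**Figure D2:**
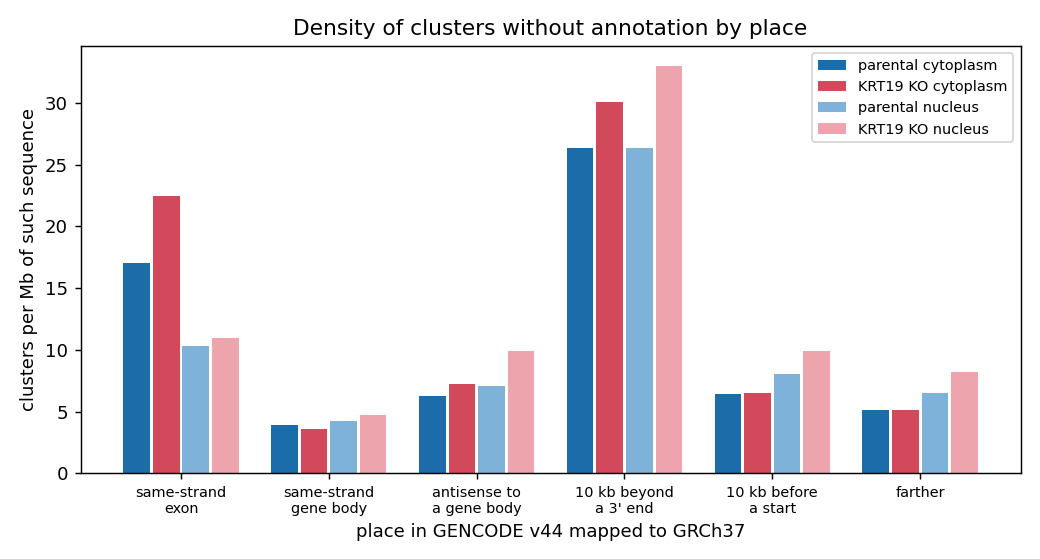
Members per Mb of sequence (vertical axis) for 6 kinds of place in GENCODE release 44 mapped to GRCh37, with 1 bar per library. Sequence within 10 kb beyond a 3′ end has between 26.3 and 33.0 members per Mb, the highest of the 6 in each library.

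Along the chromosomes the members were unevenly spread. Per chromosome they numbered between 6.23 and 17.9 per Mb in the parental cytoplasm and between 9.66 and 28.9 in the *KRT19* KO nucleus. Chromosome 18 was lowest in every library, and chromosome 19 was highest in all but the parental cytoplasm, where chromosome 12 was. Of the 28823 bins of 100 kb, 9927, 9463, 12293 and 13190 held a member. Dense bins, with at least 10 members, numbered 774, 947, 694 and 1092 and held 38.3%, 44.6%, 32.4% and 40.8% of the members. Intron clusters, which were more numerous, lay in dense bins in 78.3%, 69.6%, 80.9% and 78.6% of cases. The 288 fullest bins, 1% of all, held 21.5%, 21.8%, 19.7% and 18.5% of the members, against 12.2%, 13.2%, 12.0% and 12.3% for introns. The 2 measures thus went in opposite directions between members and introns.

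Within a dense bin the members lay mostly on a single strand. The commoner strand took 93.5%, 93.5%, 94.1% and 93.5% of the members of dense bins. All members were on the same strand in 58.7%, 60.1%, 56.9% and 56.3% of dense bins, against 80.4%, 79.7%, 77.3% and 77.1% for introns. The dense bins also recurred. A bin was dense in at least 1 library in 1589 cases, and 1513 of these (95.2%) had a member in all 4. Of the 19943 bins with any member in at least 1 library, 4813 had one in all 4. Dense in exactly 1 library were 618 bins. Dense in all 4 were 361 bins, which held between 18.8% and 22.9% of the members of each library. Of 971 bins dense in 2 or more libraries, 924 had the same commoner strand in each of them. Spearman's rho of members per bin between libraries was between 0.43 and 0.55 over the 19943 bins with a member in at least 1 library. These bins share their base composition and gene content across libraries.

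**Figure D3:**
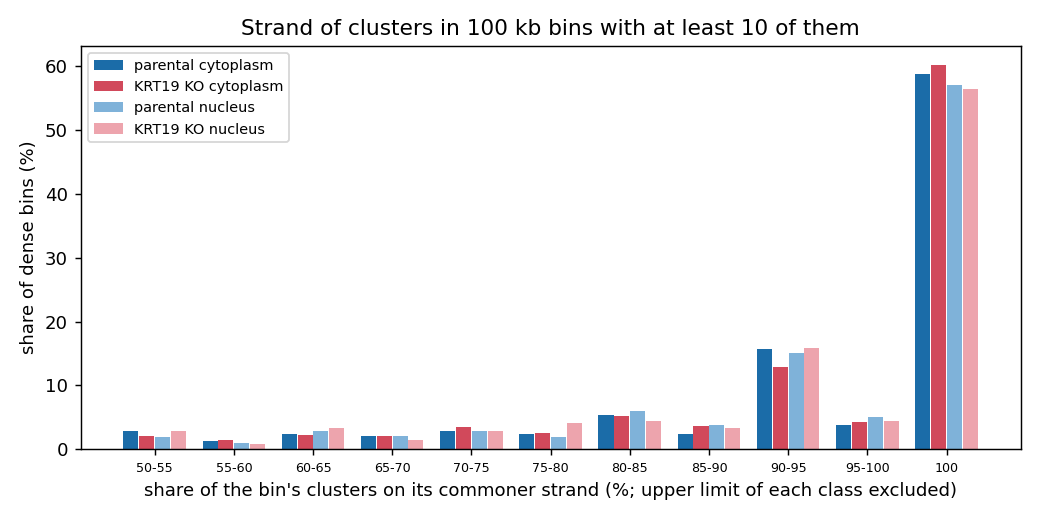
Dense 100 kb bins by the share of their members on the commoner strand (%, horizontal axis), as a share of the dense bins of each library (%, vertical axis). The class at 100% is the highest in every library, between 56.3% and 60.1% of dense bins.

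The 6 bins with the highest mean share of members show what the dense regions hold. The first was chr9:2700000-2799999 with 87, 120, 91 and 103 members, all 401 on the minus strand. The newer annotation places 82.3% of them in *PUM3*, a Pumilio-family RNA-binding protein gene, and the others within 50 kb beyond a same-strand gene end. Members of chr1:234100000-234199999 numbered 102, 57, 97 and 81, and 99.4% lay in *SLC35F3*. At chr3:44000000-44099999 there were 93, 41, 120 and 62, none in a same-strand gene. At chr10:124900000-124999999 there were 77, 55, 78 and 67, with 12.3% in a same-strand gene and 74.4% within 50 kb beyond an end. *BUB3*, a spindle checkpoint gene, is the only same-strand gene there. At chr1:98600000-98699999 there were 95, 41, 84 and 49, with no same-strand gene in the bin. At chr11:29300000-29399999 there were 85, 47, 71 and 60, also with none. In the first bin the *KRT19* KO libraries had more members than the parental ones of the same fraction, and in the other 5 they had fewer.

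Few single sites recurred. Of 129967 sites, 109043 (83.9%) were in 1 library, 15132 in 2, 4531 in 3 and 1261 (0.970%) in all 4. A member overlapped a cluster of any class in another library, by 1 nt or more on its own strand, in 36.2% (35.7 to 36.7%), 36.5% (36.0 to 36.9%), 28.4% (28.0 to 28.9%) and 25.0% (24.6 to 25.4%) of cases. Introns gave 45.0%, 54.7%, 39.4% and 39.9%, with higher median reads of 10, 9, 11 and 11. The share of members rose with reads, from 20.9%, 20.4%, 19.3% and 15.1% at 5 to 9 reads to 91.1%, 85.5%, 91.0% and 93.9% at 100 reads or more. Introns of at least 100 reads gave 93.6%, 92.9%, 93.6% and 93.1%. A site with no member in a library may lie under the minimum of 5 reads there, so the low overlap of small members does not show that the RNA was unbound. The sites in exactly 2 libraries were most often of both cytoplasmic libraries, with 3685, and then of both *KRT19* KO libraries, with 3144.

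Recurring members held UCCC more often. With no overlap in another library, 24.5%, 23.2%, 28.2% and 30.1% held it, and with an overlap in all 3 others 54.8%, 55.0%, 54.7% and 50.8% did. Reads moved with recurrence, since the median rose from between 7 and 9 to between 25 and 29.5. Among members of 10 to 19 reads alone, the share still rose from 24.0% (22.8 to 25.3%), 24.2% (22.99 to 25.4%), 26.5% (25.7 to 27.4%) and 27.1% (26.4 to 27.9%) to 51.9% (46.2 to 57.5%), 54.2% (48.5 to 59.7%), 50.3% (44.7 to 55.9%) and 47.7% (42.2 to 53.3%). The intervals of the lowest and highest classes did not overlap in any library, but they cover counting error only. Members with an overlap in all 3 others came largely from the same sites in each library, so the 4 rises are not separate observations. Over the same steps G fell from 8.10%, 7.38%, 13.5% and 9.06% of the bases to 3.39%, 3.57%, 3.32% and 2.86%. Intron clusters changed likewise, from 23.1%, 21.1%, 27.9% and 27.1% with UCCC to 55.1%, 53.9%, 55.0% and 50.4%.

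**Figure D4:**
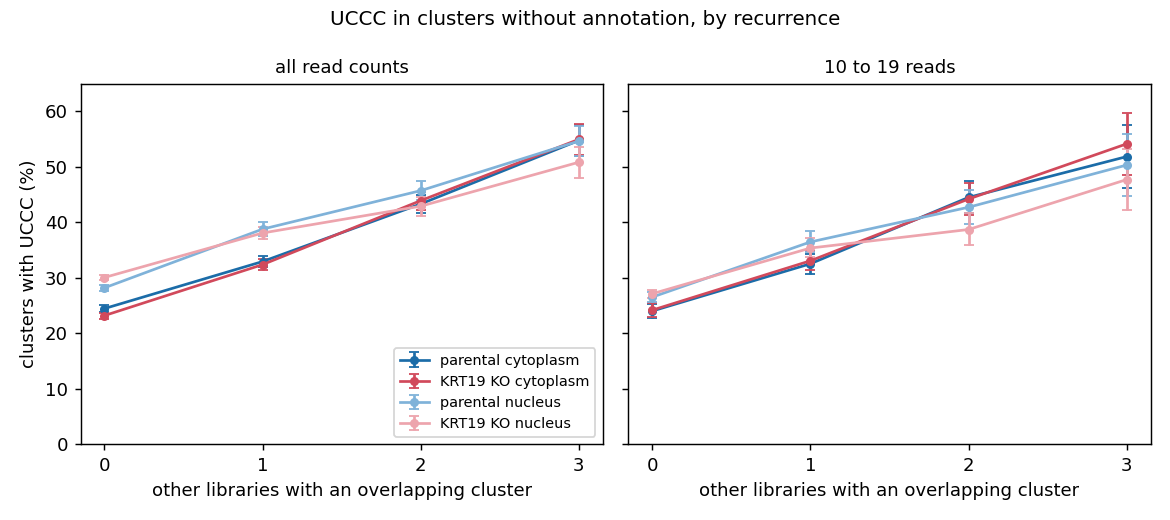
Share of members with UCCC (%, vertical axis) by the number of other libraries with an overlapping cluster (horizontal axis), for all members at left and those of 10 to 19 reads at right, with 95% Wilson intervals for counting error. Every line rises from 0 to 3 other libraries, to between 50.8% and 55.0% at left and between 47.7% and 54.2% at right.

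Libraries were compared over bins by the reads of a bin per 1000000 reads in all clusters of the library on chromosomes 1 to 22 (RPM), with 1 read added to each bin and at least 50 member reads in the pair. Between the cytoplasms, 446 of 3747 bins (11.9%) were past 4-fold higher in *KRT19* KO cells, and 306 (8.17%) past 4-fold lower. In bins of all clusters the same shares were 4.37% and 9.53%. Between the nuclei, 722 of 4966 bins (14.5%) were past 4-fold higher in *KRT19* KO cells and 385 (7.75%) lower, against 4.4% and 5.49% for all clusters. The median log2 ratio of *KRT19* KO over parental was 0.26 in the cytoplasm and 0.43 in the nucleus for members, and -0.23 and 0.00 for all clusters. Of the 446 bins, 97 had no cluster without annotation in the parental library, and of the 722 it was 156. By number of members in place of reads, 127 of the 446 and 252 of the 722 were also past 4-fold. Without the bins of a single library, the 306 bins lower in the *KRT19* KO cytoplasm became 273. PAR-CLIP reads are not RNA levels, and the RNA-seq samples were not analysed. Whether these differences, and those of the regions below, came with binding or with the amount of RNA was not tested.

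The 2 comparisons of cell lines share no library. Over the 3017 bins in both, Pearson's r of the log2 ratios was 0.34 and Spearman's rho 0.36, as a description of bins that share their gene content. Of the 300 bins past 4-fold higher in the *KRT19* KO cytoplasm, 247 (82.3%) were higher and 95 (31.7%) past 4-fold higher in the *KRT19* KO nucleus, against 66.5% and 13.0% of all 3017. Of the 203 bins past 4-fold lower, 141 (69.5%) were lower and 42 (20.7%) past 4-fold lower in the nucleus, against 33.5% and 3.55%. In bins of all clusters, 300 of 391 higher and 608 of 808 lower bins kept their direction (76.7% and 75.2%), against 50.9% higher and 49.1% lower in the nucleus among all 10457.

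**Figure D5:**
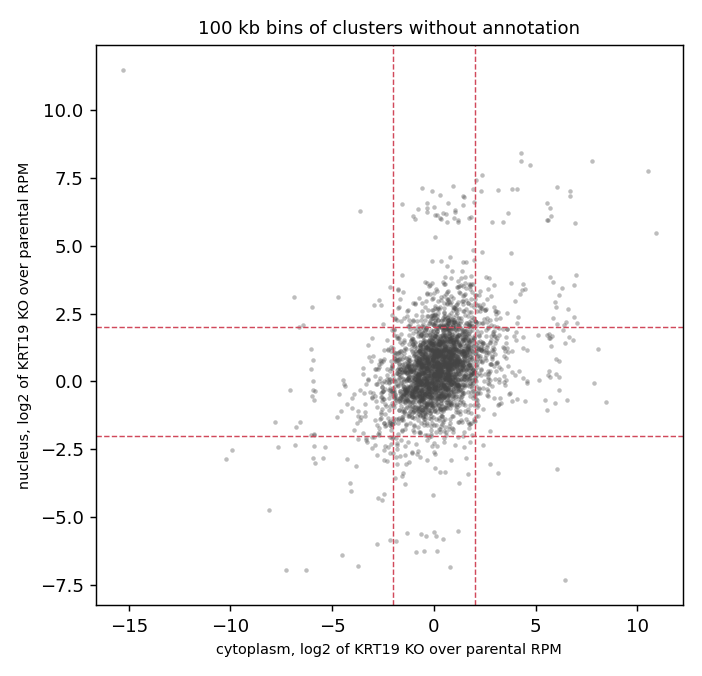
Log2 ratio of *KRT19* KO over parental RPM in the cytoplasm (horizontal axis) and the nucleus (vertical axis), with 1 point for each of 3017 bins of 100 kb and dashed lines at 4-fold. Points far from the centre include bins with no cluster in a library, whose place depends on the added read, and the point at upper left is the bin of the member close to the mitochondrial genome.

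A region on chromosome 3 was found almost only in *KRT19* KO cells. The bin chr3:104100000-104199999 held 0, 81, 6 and 103 members, with 0, 2088, 69 and 2761 reads. Of these 190 members 188 were on the minus strand, and the bin has no annotated same-strand gene. The nearest same-strand gene upstream is *CBLB*, a ubiquitin ligase gene, whose 3′ end is 1175556 nt away. In the nucleus the RPM was 897 in *KRT19* KO cells and 20.04 in parental cells, which is 44.8-fold, and in the cytoplasm the parental library had none, so no fold is given. With the bin before it, chosen after its values were seen, chr3:104000000-104199999 held 0, 150, 7 and 189 members on the minus strand. Their reads were 0, 3675, 76 and 4297. No member there held over 241 reads, so the difference was spread over many members, and no cluster of another class lay there in any library. T-to-C changes were in 61.9% and 71.0% of the *KRT19* KO reads, and UCCC was in 19.3% and 18.5% of the *KRT19* KO members. On the same strand the bin chr3:103900000-103999999 held 0, 4, 0 and 7 members, and chr3:104400000-104499999 held 3, 3, 8 and 7.

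A region on chromosome 1 went the other way. The bins chr1:98500000-98599999 and chr1:98600000-98699999 together held 174, 88, 163 and 88 members on the plus strand, with 6964, 1452, 6489 and 1409 reads. As RPM, parental and *KRT19* KO cells had 1289 and 248 in the cytoplasm and 1885 and 458 in the nucleus. The parental libraries were higher in both fractions. In the former bin parental cells were 4.16-fold higher in the cytoplasm and 4.27-fold in the nucleus, and in the latter 6.56-fold and 3.94-fold. The pseudogene *NFU1P2* is the only same-strand gene in the former, and no member there lay in it. Between them the members' largest read count was 382, so again many members carried the difference.

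Other bins past 4-fold between cell lines turned on few members. At chr1:222900000-222999999, which holds *BROX*, the reads were 110, 2496, 22 and 63 over 6, 9, 2 and 4 members, 21.0-fold higher in the *KRT19* KO cytoplasm. At chr1:222600000-222699999 they were 5373, 5, 804 and 122 over 1, 1, 2 and 2 members. At chr16:33900000-33999999 the parental cytoplasm had 97531 reads, of which the ribosomal-like member named above held nearly all, against 87, 56 and 6. At chr12:127600000-127699999 the reads were 74726, 11949, 264 and 11, and its main member was 96.2% identical to the ribosomal contig in the parental cytoplasm. A further bin differed over many members. At chr11:8700000-8799999, which holds the ribosomal protein gene *RPL27A*, there were 16, 46, 21 and 71 members with 202, 906, 337 and 2216 reads. *KRT19* KO cells were 4.14-fold higher in the cytoplasm and 7.36-fold in the nucleus. In a same-strand gene, there *RPL27A* or *ENSG00000254665*, lay 66.9% of these members, and 89.0% lay antisense to a gene body.

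Between fractions, 265 of 4135 bins (6.41%) were past 4-fold higher in the parental cytoplasm than in the parental nucleus and 978 (23.7%) lower, against 5.55% and 12.5% for all clusters. In *KRT19* KO cells 320 of 4460 bins (7.17%) were higher in the cytoplasm and 1424 (31.9%) lower, against 6.85% and 23.2%. By number of members, 147 of the 978 and 126 of the 1424 were also past 4-fold. These comparisons share their libraries with those of the cell lines.

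Beyond *CDK1*, the kinase gene of mitotic entry, the cytoplasm was higher. The bin chr10:62500000-62599999 had 37, 52, 25 and 28 members, 141 of 142 on the plus strand and 99.3% within 50 kb beyond a same-strand gene end. Their reads were 2865, 6866, 852 and 693. The cytoplasm was 2.14-fold higher in parental and 5.22-fold in *KRT19* KO cells. Its largest member lay 11105 nt beyond *CDK1* and had 1125, 2932, 207 and 88 reads, and it is printed with its UCCC in capitals.
Beyond *CDK1*, chr10:62565715-62565744, plus strand: tgttatactTCCCaatttttatacaaaaat

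The nucleus was higher at chr20:33500000-33599999, beyond the glutathione synthetase gene *GSS* and *TRPC4AP*. The members there numbered 11, 13, 24 and 26, with 272, 319, 791 and 551 reads, all within 50 kb beyond a same-strand gene end. Of these members 98.6% also lay antisense to a gene body. The largest held 37.1% of the reads of the parental libraries. By RPM the nucleus was 4.56-fold higher in parental and 3.28-fold in *KRT19* KO cells. In the bin that holds *RPL27A* the nucleus was 2.62-fold and 4.64-fold higher. At chr4:60000000-60099999 it was 5.91-fold and 18.5-fold higher, over 1, 1, 1 and 3 members with 264, 98, 994 and 954 reads, and its main member was 93.3% identical to the ribosomal contig. At chr11:85100000-85199999 the parental cytoplasm had 79681 reads in 2 members, against 0, 28 and 14 in the other libraries, and its main member was 98.6% identical to the ribosomal contig.

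Regions held by a single library were small outside the parental cytoplasm. The fullest was chr7:130600000-130699999 with 19 members and 638 reads in the parental cytoplasm and none elsewhere. All 19 lay in same-strand genes of the newer annotation, there *LINC-PINT*, a long non-coding RNA gene, and *ENSG00000271204*. This is among the 39 bins in which the other libraries had almost no clusters of any class. In the *KRT19* KO cytoplasm the fullest was chr3:104200000-104299999, next to the chromosome 3 region, with 8 members, 7 of them on the plus strand. The parental nucleus had 6 at chr9:18600000-18699999, which holds *ADAMTSL1*, and the *KRT19* KO nucleus 5 at chr2:42400000-42499999. The third member by reads in the *KRT19* KO cytoplasm lay in the gene body of *NECTIN3*, a cell adhesion gene, and had 1103, 2456, 40 and 0 reads. The second in the parental nucleus, at chr1:222638347-222638377, had 5373, 0, 766 and 115.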

How the data were processed

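HNRNPK PAR-CLIP was analysed in 4 libraries, 1 per condition, and the 17 RNA-seq samples were not analysed here. Per the methods, the authors digested RNA with RNase T1, used hg19 as reference and PARalyzer to call clusters. In the general fractionation methods, which the PAR-CLIP methods do not repeat for nuclei, nuclear fractions came from the pellets with Triton X-100. The submitters' processing notes also name bcl2fastq 2.20.0, TopHat, Cuffdiff and Cufflinks 2.2.1, with the build hg38. All members were checked to be equal to the GRCh37 sequence, so GRCh37 was used. The authors deposited raw counts of reads, unique reads and T-to-C reads per cluster, without normalization. The fraction, score and log10 columns the authors deposited were not used.

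Members and lists were chosen with earlier results of these data known. Bins of 100 kb were filled by cluster midpoint. Genes came from GENCODE release 44 mapped to GRCh37, without repeat annotation. Named regions were the 6 bins with the highest mean share of members, the 3 members with most reads per library, the 10 sites in all 4 libraries with the highest lowest read count (chromosome 8 left out), the fullest bin of each library alone, and the 2 bins with most reads past 4-fold per comparison and direction. Overlap, copy search and intervals were tested on simulated data. Alternatives covered minimum reads, unique reads, conversion locations, weighting, motif, flank distance, bin size, strand and overlap. Those using GENCODE release 44, leaving out bins of a single library from the 4-fold counts, or leaving out the members with most reads from the share of reads, were chosen after seeing the data. The tools were edlib 1.3.9.post1, numba 0.67.0, matplotlib 3.10.9, pandas 2.3.3, numpy 2.4.6 and scipy 1.17.1 under Python 3.11.15.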

Additional observations from a re-analysis of the deposited data

Results flagged for a closer look

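Both fractions differed in opposite directions in the 2 cell lines for 2 measures, and with 1 library per condition neither difference was tested. The T-to-C share of member reads was 0.0267 percentage points higher in the cytoplasm than in the nucleus of parental cells, while in *KRT19* KO cells the cytoplasm minus the nucleus was -14.1 points. The parental difference turned without the 10 members with the most reads in each library, to -2.73 points, and that of *KRT19* KO cells was then -14.3 points, so both had the same direction. The median length of members, cytoplasm minus nucleus, was -1 nt in parental and 3 nt in *KRT19* KO cells.

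Clusters without annotation were also present on chromosome X, which the comparisons did not use. They numbered 1217 in the parental cytoplasm, 847 in the *KRT19* KO cytoplasm, 975 in the parental nucleus and 1115 in the *KRT19* KO nucleus.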

How the results depend on the processing

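No paired analysis was possible because each condition had 1 library and no replicate numbers. For the same reason no library could be left out of a group. The 4 values in each sentence are for the parental cytoplasm, *KRT19* KO cytoplasm, parental nucleus and *KRT19* KO nucleus. Of the planned settings, 24 left a value within its counting interval, or a count of bins within 1.5 times, and 100 moved it. Of those added after seeing the data it was 11 and 13. The cause of these moves was not tested.

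With at least 10 reads per cluster, the share of clusters without annotation was 14.3%, 18.0%, 18.4% and 22.6%, the T-to-C share 70.2%, 61.5%, 68.1% and 76.3%, and the C share 26.3%, 26.8%, 25.7% and 28.1%. UCCC was then in 33.1% and 32.5% of the cytoplasmic members, and the share found in another library was 58.5%, 57.8%, 35.7% and 33.6%. With at least 2 unique reads, the share of clusters was 15.6%, 20.1%, 17.8% and 22.5%, UCCC was in 32.4%, 30.1%, 34.5% and 35.4%, dense bins held 33.8%, 43.5%, 24.3% and 31.3%, and 19.95%, 20.9%, 17.6% and 17.8% lay near a gene end. With at least 2 conversion locations the share of clusters was 13.2%, 18.3%, 13.6% and 17.4%. Weighted by reads it was 16.2%, 12.0%, 16.6% and 21.8%, and the C share 28.6%, 26.1%, 27.1% and 29.5%. Weighted by reads without the 10 members with the most reads, the share of clusters was 10.8%, 11.5%, 16.5% and 21.2%. With all sequences counted the share of clusters was 17.8% in the parental cytoplasm and 19.6% in the parental nucleus. Without the 10 members with the most reads the T-to-C share was 71.4% in the parental cytoplasm, 67.6% in the *KRT19* KO cytoplasm and 81.9% in the *KRT19* KO nucleus.

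CCC in place of UCCC was in 40.9%, 41.3%, 45.5% and 46.3%, with ratios to the flanks of 1.74, 1.79, 1.66 and 1.92. With flanks 500 nt away the UCCC ratio was 2.72 and 2.70 in the cytoplasms and 3.06 in the *KRT19* KO nucleus. Bins of 50 kb put 27.9%, 33.1%, 23.5% and 29.4% of members in dense bins, bins of 1 Mb 83.9%, 86.2%, 82.9% and 87.6%, and separate strands 33.5%, 39.3%, 28.6% and 35.9%. An overlap of 50% of the shorter cluster gave 35.7% in the parental cytoplasm, 27.9% in the parental nucleus and 24.6% in the *KRT19* KO nucleus. Within 5 kb beyond a 3′ end, and outside gene bodies on either strand, lay 13.2%, 13.98%, 11.6% and 11.2%, and within 50 kb, counted likewise, 32.4%, 33.9%, 32.2% and 32.6%. Outside same-strand genes of the newer annotation, dense bins held 31.4%, 38.1%, 25.9% and 35.5%, the share found in another library was 34.1%, 34.5%, 26.3% and 22.9%, and UCCC was in 31.7% of the parental nuclear members.

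Counts of bins past 4-fold, higher then lower, were by number of clusters 139 and 90 for *KRT19* KO against parental cytoplasm, 263 and 72 for the nuclei, 95 and 148 for parental cytoplasm against nucleus, and 102 and 127 for the *KRT19* KO fractions. With at least 100 reads per bin they were 246 and 136, 329 and 81, 145 and 319, and for the *KRT19* KO fractions 674 lower. The median of 8 to 10 reads per member, against a minimum of 5, limits what overlap between libraries can show.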

Other observations

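The longest runs of neighbouring dense bins were 7 bins in the parental cytoplasm and the *KRT19* KO nucleus and 5 in the other libraries, and they were looked up after these values were seen. In the *KRT19* KO nucleus chr6:126300000-126999999 held 133 members, 132 of them on the plus strand. *HINT3*, *TRMT11* and *CENPW*, a kinetochore gene, lie there on the same strand. The first 5 of these bins were also dense in the parental nucleus, with 112 members, 111 on the plus strand. In the *KRT19* KO cytoplasm chr11:29100000-29599999 held 145 members, 143 on the plus strand, around the bin named in the report. In the same library chr6:27800000-28299999 held 85 members with 69 on the plus strand. Its many same-strand genes include the histone genes *H2BC15*, *H2AC16* and *H2BC17*, and also *ZNF165*, *ZKSCAN8*, *ZSCAN9* and *PGBD1*. The members were not placed among these genes. In the parental nucleus the 5 bins of chr1:234000000-234499999, at *SLC35F3*, held 279 members, 278 on the plus strand.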
